A study of Mus musculus with 23 samples.

Results

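The cytochrome P450 4 (Cyp4) fatty acid hydroxylases were examined in mouse liver on arrays from a P2ry13 knockout study. The genes were chosen by name: Cyp4a10, Cyp4a12a, Cyp4a14, Cyp4f13, Cyp4f14, Cyp4f15 and Cyp4v3. A gene counted as measured where the platform annotation gives a probe set that gene's symbol and no other, and the brightest such probe set was to stand for the gene. Of the 7 genes, 4 were found among the 38385 probe sets, each with 1 probe set: Cyp4a14, Cyp4f13, Cyp4f15 and Cyp4v3. The other 3, Cyp4a10, Cyp4a12a and Cyp4f14, have no named probe set here and were not analysed here. RNA came from livers of 6 female wild-type (WT), 6 female GPR86 KO, 5 male WT and 6 male GPR86 KO mice, with 1 array per liver, and the study compared liver transcripts with and without P2ry13. GPR86 is another name for P2ry13, a receptor for extracellular ADP. The sources used here do not give age, strain, litter, diet, time of day, the allele, or whether deletion was limited to some cells. The male WT arrays carry replicate numbers 2 to 6.

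Cyp4 enzymes sit in the endoplasmic reticulum and add a hydroxyl group to the last carbon of a fatty acid chain, a reaction called omega-hydroxylation. The product is oxidised to a dicarboxylic acid and shortened in peroxisomes, which provides a side route to mitochondrial fatty acid oxidation. Cyp4a genes are textbook targets of PPAR-alpha, the nuclear receptor that responds to fatty acids in liver and is active in fasting. Cyp4f enzymes act on leukotriene B4 and other eicosanoids as well as on long fatty acids. Cyp4v3 is the mouse counterpart of human CYP4V2, a fatty acid hydroxylase whose loss causes a crystalline retinal dystrophy.

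By the RefSeq gene table of assembly GRCm38.p6, Cyp4a14 is on chromosome 4, Cyp4f13 and Cyp4f15 are on chromosome 17 and Cyp4v3 is on chromosome 8. The RefSeq promoter table of the same assembly holds 3 of the 4 measured genes, matched by symbol: Cyp4f13, Cyp4f15 and Cyp4v3. Their 250 bases before the transcription start are shown to set the sex-differing Cyp4v3 beside the Cyp4f pair. They lie at chr17:32947362-32947611 (minus strand) for Cyp4f13, chr17:32685409-32685658 (plus strand) for Cyp4f15 and chr8:45333164-45333413 (minus strand) for Cyp4v3. Capitals mark matches to the motifs searched.
Cyp4f13: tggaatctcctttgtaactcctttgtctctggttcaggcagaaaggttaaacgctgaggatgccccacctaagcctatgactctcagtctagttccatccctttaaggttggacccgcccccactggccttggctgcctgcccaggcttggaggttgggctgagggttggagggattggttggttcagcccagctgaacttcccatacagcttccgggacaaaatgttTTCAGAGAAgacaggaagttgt
Cyp4f15: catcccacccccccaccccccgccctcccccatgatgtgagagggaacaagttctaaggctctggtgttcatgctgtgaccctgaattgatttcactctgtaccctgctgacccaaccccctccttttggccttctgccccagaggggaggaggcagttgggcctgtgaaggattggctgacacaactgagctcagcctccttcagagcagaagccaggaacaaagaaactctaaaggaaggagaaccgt
Cyp4v3: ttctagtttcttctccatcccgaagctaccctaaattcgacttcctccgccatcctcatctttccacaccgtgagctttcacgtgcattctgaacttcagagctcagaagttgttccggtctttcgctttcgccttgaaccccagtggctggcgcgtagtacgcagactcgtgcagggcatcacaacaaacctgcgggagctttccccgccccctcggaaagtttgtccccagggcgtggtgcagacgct
The motifs were searched on both strands. They were TTCNNNGAA, the core of STAT5 sites, AGGTCA, a nuclear receptor half-site, AGGTCANAGGTCA, a pair of half-sites of the kind PPAR-alpha binds, which contains the half-site, and TATAAA, the core of the TATA box. Only 1 match was found in the 3 windows: TTCAGAGAA in Cyp4f13, 22 to 14 bases before the start. Among the same windows of all 32851 promoters in the table, TTCNNNGAA occurred in 7.02%, AGGTCA in 14.0%, AGGTCANAGGTCA in 0.0335% and TATAAA in 12.4%. GC content was 52.8% for Cyp4f13, 56.4% for Cyp4f15 and 55.6% for Cyp4v3. A match describes letters only, and the absence of one says only that these letters are not in the window.

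The arrays were alike in overall signal, with medians between 19.53 and 21.1 in linear intensity and pairwise array correlations from 0.983 to 0.995 (log2 values of all probe sets). P2ry13 was lower in every KO array than in every WT array of the same sex, by 1.12 on average on the log2 scale in females (SE 0.09) and by 0.80 in males (SE 0.09). In KO its probe set still read 5.06 to 5.22 in females and 5.07 to 5.34 in males. Probe sets of Y-linked genes read 2.53 to 3.69 in female livers, which marks the level without transcript for those 4 probe sets. The P2ry13 probe set read above that range in every KO liver. Of genes with a known sex bias, male-biased Hsd3b5 averaged 9.16 in WT and 5.43 in KO females (12.51 and 12.03 in males), and female-biased Sult2a1 averaged 5.94 and 9.38 (2.75 and 2.69 in males), all as log2 intensity. These genes were chosen after their values had been seen. Their part in the sex differences given here for WT was not tested. In whole liver, fewer cells of a type and less RNA per cell cannot be told apart. Precision is limited by the number of arrays per group.

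Cyp4a14 was higher in female than in male livers in both genotypes, and it was the Cyp4 gene with the widest range. In female WT replicates 1 to 6 its log2 intensity was 11.05, 11.10, 10.77, 10.80, 10.79 and 10.68. In female KO replicates 1 to 6 it was 10.20, 10.87, 10.80, 11.11, 11.05 and 11.37. The female ranges overlapped, and the KO range was the wider one, reaching below WT in replicate 1 and above it in replicate 6. In male WT replicates 2 to 6 it was 7.96, 9.21, 8.29, 9.95 and 8.04, and in male KO replicates 1 to 6 it was 8.81, 7.71, 8.77, 8.55, 6.46 and 7.35. Each male liver lay below each female liver. The male values spread widely, from 6.46 in KO replicate 5, near 87.8 in linear intensity, to 9.95 in WT replicate 5, near 988.

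The group means of Cyp4a14 were 10.87 ± 0.17 in female WT (SD, n = 6), 10.90 ± 0.40 in female KO (SD, n = 6), 8.69 ± 0.86 in male WT (SD, n = 5) and 7.94 ± 0.94 in male KO (SD, n = 6). In WT livers it was 4.53-fold higher in females, a log2 difference of 2.18 (SE 0.34, 95% confidence interval 1.48 to 2.88, limma, adjusted p = 0.000127). The lowest female WT liver lay 0.73 above the highest male WT liver. In KO livers it was 7.77-fold higher in females, a log2 difference of 2.96 (SE 0.33, 95% confidence interval 2.29 to 3.63, limma, adjusted p = 3.57e-07). There the gap between the ranges was 1.39. The WT and KO sex comparisons share no arrays. Whether they differ was tested as the difference of the KO effects, 0.78 (SE 0.47, 95% confidence interval -0.19 to 1.75, limma, adjusted p = 0.975), which did not pass. The probe set carries the name of Cyp4a14 alone, but Cyp4a genes are close in sequence, and signal from Cyp4a10 or another copy cannot be told apart here.

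**Figure D1:**
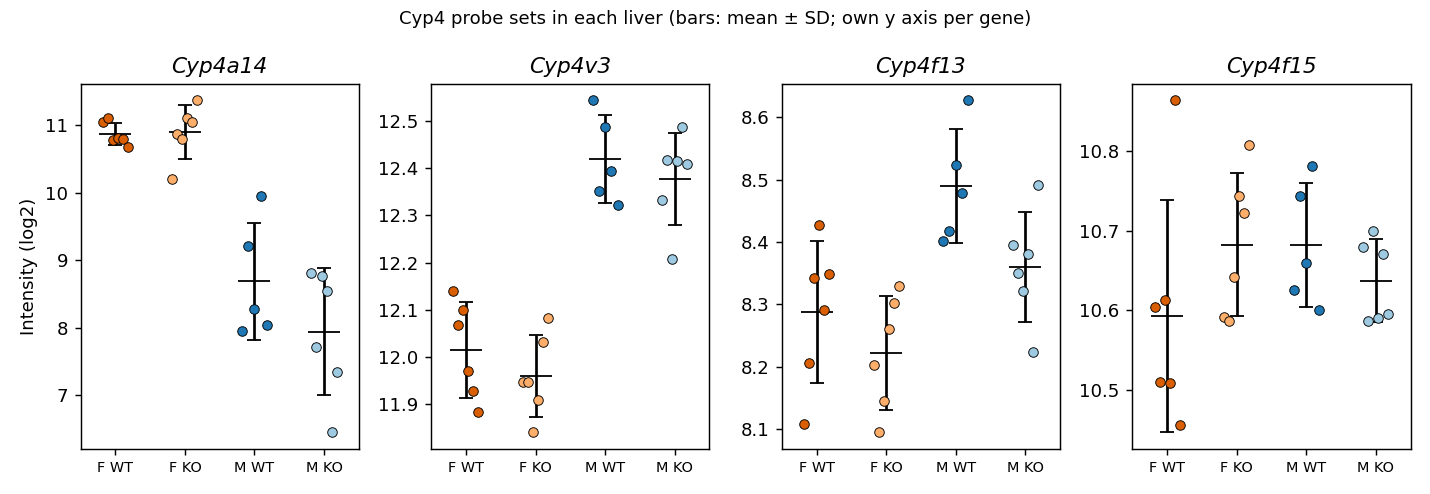
Log2 intensity of the 4 measured Cyp4 genes in each of the 23 livers, by group (F female, M male), with group mean and SD as bars. Each gene has its own y axis, so the heights compare groups and not genes. Cyp4a14 separates the sexes by 0.73 on the log2 scale within WT and by 1.39 within KO, with a wide male spread, Cyp4v3 separates them in the other direction over a far smaller range, and the groups overlap for Cyp4f13 and Cyp4f15.

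Cyp4v3 was lower in females than in males in both genotypes, by a small and even amount. In female WT livers its lowest, median and highest log2 values were 11.88, 12.02 and 12.14, and in female KO livers 11.84, 11.95 and 12.08. The 5 male WT livers read 12.54, 12.35, 12.49, 12.39 and 12.32, and the male KO livers had a lowest, median and highest of 12.21, 12.41 and 12.49. All female livers lay below all male livers of either genotype. The group means were 12.02 ± 0.10 (SD, n = 6), 11.96 ± 0.09 (SD, n = 6), 12.42 ± 0.09 (SD, n = 5) and 12.38 ± 0.10 (SD, n = 6) in the same order. Females were 1.32-fold lower in WT, where the log2 difference was -0.40 (SE 0.07, 95% confidence interval -0.55 to -0.26, limma, adjusted p = 0.000362). They were 1.34-fold lower in KO, where it was -0.42 (SE 0.07, 95% confidence interval -0.55 to -0.28, limma, adjusted p = 8.5e-05). When the test asked for a change above 20% instead of any change, neither difference passed (limma, adjusted p = 1 in WT and 0.699 in KO).

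Cyp4f13 leaned the same way as Cyp4v3 without passing the test. Its lowest, median and highest log2 values were 8.11, 8.32 and 8.43 in female WT and 8.10, 8.23 and 8.33 in female KO. The male WT livers read 8.40, 8.42, 8.52, 8.48 and 8.63, and the male KO livers had a lowest, median and highest of 8.22, 8.37 and 8.49. In WT, 5 of the 6 female livers lay below all male livers, and female replicate 4 at 8.43 overlapped with them. The mean was 8.29 ± 0.11 (SD, n = 6) in female WT and 8.49 ± 0.09 (SD, n = 5) in male WT, a log2 difference of -0.20 (SE 0.07, 95% confidence interval -0.34 to -0.06, limma, adjusted p = 0.106). After quantile normalization the difference was -0.23 and passed (limma, adjusted p = 0.0374). In KO the means were 8.22 ± 0.09 and 8.36 ± 0.09 (SD, n = 6 each), a difference of -0.14 (SE 0.07, limma, adjusted p = 0.3).

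Cyp4f15 did not separate the groups. Its lowest, median and highest log2 values were 10.46, 10.56 and 10.86 in female WT, 10.59, 10.68 and 10.81 in female KO, and 10.59, 10.63 and 10.70 in male KO, while the male WT livers read 10.63, 10.74, 10.66, 10.78 and 10.60. The 4 ranges overlapped, and the single highest value was that of female WT replicate 5. The sex difference was -0.09 in WT (95% confidence interval -0.23 to 0.05, limma, adjusted p = 0.579) and 0.05 in KO (95% confidence interval -0.09 to 0.18, limma, adjusted p = 0.816). These intervals place any sex difference of Cyp4f15 well inside that of Cyp4a14.

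Of the 4 measured Cyp4 genes, 2 passed between the sexes in WT, against 4.25% of all probe sets, and the same 2 passed in KO, against 4.85%. On the brightest probe set per gene the shares were 5.71% in WT and 6.74% in KO. The Cyp4 genes were chosen with earlier results of these data known, so these counts are a description. In each genotype 1 was higher in females, as were 2.54% of all probe sets in WT and 3.21% in KO, and 1 was lower, as were 1.71% and 1.64%. In a moderated F test over the 4 groups the same 2 passed, against 6.49% of all probe sets, with adjusted p of 7.23e-08 for Cyp4a14, 6.7e-06 for Cyp4v3, 0.0664 for Cyp4f13 and 0.764 for Cyp4f15 (limma). Spread between livers of the same group set Cyp4a14 apart from the rest. Its within-group SD, pooled over the 4 groups, was 0.66 on the log2 scale. That was larger than for 99.8% of all probe sets, whose median was 0.15. The wide spread was in the males, with SDs of 0.86 in WT and 0.94 in KO. In females the SD was 0.17 in WT and 0.40 in KO. The SDs of Cyp4f13 (0.10), Cyp4f15 (0.10) and Cyp4v3 (0.10) were smaller than those of most probe sets, above only 5.6%, 6.18% and 4.84% of them.

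Loss of P2ry13 changed none of the measured Cyp4 genes past the test. In females 0 of 4 passed, where 0.0547% of all probe sets did, and none had an unadjusted p under 0.05. In males 0 of 4 passed, where 0.0313% of all probe sets did. By limma 1 of 4, Cyp4a14, had an unadjusted p under 0.05. Of all 38385 probe sets, 2253 in females and 2355 in males had one. A plain test within each sex, without limma's shared spread, also gave 0 of 4 after adjustment. Before adjustment it passed 1 of 4 in males, Cyp4f13, and not Cyp4a14. Averaged over the sexes 0 of 4 passed, where 0.0808% of probe sets did, and 0 of 4 passed for the difference between the KO effects of the sexes, where 0.0104% did. None of the 4 had an unadjusted limma p under 0.05 in either of these 2 comparisons, where 2651 and 1973 of all 38385 probe sets did.

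In females the KO minus WT difference of Cyp4a14 was 0.03 on the log2 scale (SE 0.33, 95% confidence interval -0.64 to 0.70, limma, adjusted p = 0.996). That interval runs from 0.644 to 1.63 times the WT level and rests on a spread pooled over the 4 groups. The SDs were 0.17 and 0.40 in female WT and KO, against 0.86 and 0.94 in male WT and KO. It therefore does not give the precision of the female livers alone. In males the difference was -0.75 (SE 0.34, 95% confidence interval -1.45 to -0.04, 1.68-fold lower, limma, adjusted p = 0.794). That interval too uses the pooled spread, which is smaller than the male SDs. An exact permutation of the male arrays gave p = 0.214. The male ranges overlapped, with 3 of 6 KO livers below all WT livers. Male WT replicate 5, the highest, carries much of that difference: without it the value was -0.43, and the lone removal of WT replicate 2 gave -0.93.

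For the other 3 genes the KO intervals were narrow. Cyp4v3 differed by -0.06 in females (95% confidence interval -0.19 to 0.08, limma, adjusted p = 0.943) and by -0.04 in males (95% confidence interval -0.18 to 0.10, limma, adjusted p = 0.96). Cyp4f15 differed by 0.09 in females (95% confidence interval -0.05 to 0.23, limma, adjusted p = 0.905) and by -0.04 in males (95% confidence interval -0.19 to 0.10, limma, adjusted p = 0.957). Cyp4f13 differed by -0.07 in females (95% confidence interval -0.20 to 0.07, limma, adjusted p = 0.928) and by -0.13 in males (95% confidence interval -0.27 to 0.01, limma, adjusted p = 0.824). For Cyp4f13, 5 of 6 male KO livers lay below all male WT livers, and the plain test within males gave an unadjusted p of 0.0404 that did not pass after adjustment.

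**Figure D2:**
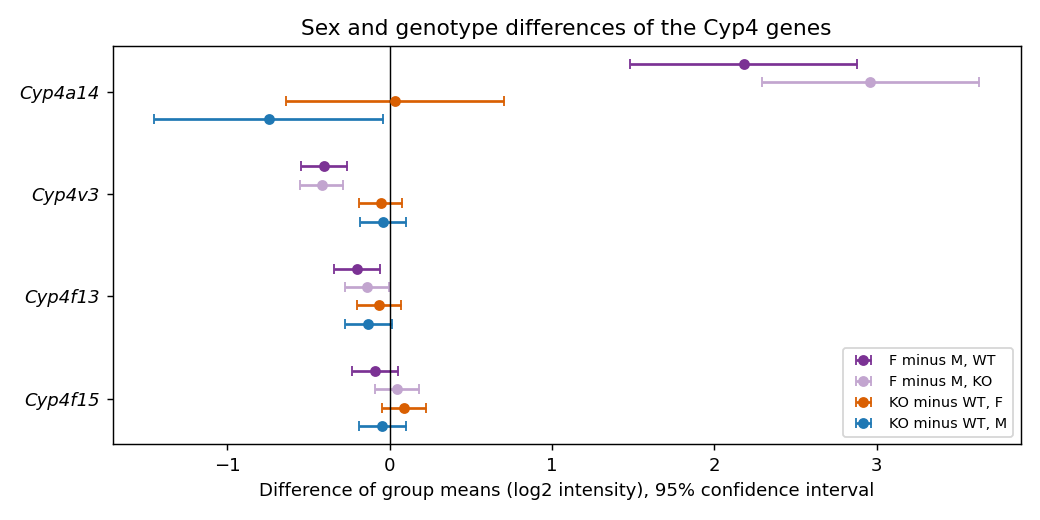
Differences of group means for each measured Cyp4 gene (log2 intensity, points) with 95% confidence intervals from limma (bars): females minus males in WT and in KO, and KO minus WT in females and in males. The sex intervals of Cyp4a14 (1.48 to 2.88 and 2.29 to 3.63) lie far from 0, those of Cyp4v3 lie just below it, and most KO intervals cross 0.

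Of 13 further Cyp4 genes, 8 were measured, and 0 of 8 passed in any of the 6 comparisons by limma or by the plain test after adjustment. Between the sexes, 1 of 8 in WT and 2 of 8 in KO had an unadjusted limma p under 0.05. Of all 38385 probe sets, 6331 in WT and 6217 in KO had one. In WT the smallest p belonged to Cyp4f39, with a sex difference of -0.20 (SE 0.08, limma, adjusted p = 0.2), and in KO to Cyp4f16, with 0.26 (SE 0.11, limma, adjusted p = 0.246). In the KO comparisons 1 of 8 in females and 1 of 8 in males had an unadjusted p under 0.05, as did 2253 and 2355 of all 38385 probe sets. Cyp4a29, Cyp4f18 and Cyp4x1 read at 2.67 to 3.42 in their group means, within the range that Y-linked probe sets showed in females. Cyp4f39 was near that range, with group means of 3.78 to 4.05 and a lowest female WT liver at 3.57. Cyp4a30b, the neighbour of Cyp4a14 on chromosome 4, differed by -0.14 between the sexes in WT (limma, adjusted p = 0.475) and by -0.18 in KO (limma, adjusted p = 0.31), with means between 5.64 and 5.92.

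The 3 genes on each side of each measured Cyp4 gene were read as well, a choice made after values had been seen. For Cyp4v3 all 6 were measured, and Mtnr1a, a melatonin receptor, was lower in females in both genotypes, by 1.14 in WT (limma, adjusted p = 6.86e-06) and by 0.85 in KO (limma, adjusted p = 0.000165). The nearest genes, Klkb1 (plasma prekallikrein) and Fam149a, did not pass, with WT sex differences of 0.08 and -0.04. For Cyp4f13, 5 of 6 neighbours were measured and 0 passed between the sexes, and for Cyp4f15, 4 of 6 were measured and 0 passed. For Cyp4a14 only 1 of 6 was measured, Cyp4a30b, which did not pass, so its surroundings were hardly read. Over all genes 5.71% passed between the sexes in WT and 6.74% in KO. No measured neighbour passed in KO against WT within either sex.

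Genes that act after omega-hydroxylation carry the product through oxidation, entry into peroxisomes and chain shortening. Of 21 listed, 17 were measured. In WT 2 were higher in females, 2 were lower and 13 did not pass, and in KO 3 were higher, 3 were lower and 11 did not pass. Their median sex difference was 0.075 in WT (0.0159 on the mean of each gene's probe sets) and 0.102 in KO, beside -0.0094 in WT and -0.00486 in KO over all genes, of which 5.71% and 6.74% passed. Abcd2, a peroxisomal importer of very long chain acyl-CoA, had a linear intensity of 514 ± 59.5 in female WT (SD, n = 6) and 31.0 ± 6.99 in male WT (SD, n = 5), 16.9-fold apart by the means of log2 values (limma, adjusted p = 4.11e-16). Acot4, a peroxisomal thioesterase that acts on dicarboxylic acyl-CoA, was 2.24-fold higher in females in WT (limma, adjusted p = 7.72e-10) and 3.03-fold in KO (limma, adjusted p = 1.64e-13). Ehhadh, the bifunctional enzyme that shortens dicarboxylic acids, was 1.49-fold higher in females in KO (limma, adjusted p = 0.000391), while in WT it was 1.18-fold higher and did not pass (limma, adjusted p = 0.236). Scp2, the peroxisomal thiolase and sterol carrier, was lower in females, by 0.29 in both genotypes (limma, adjusted p = 0.0015 in WT and 0.000531 in KO). Hsd17b4, a second bifunctional peroxisomal enzyme, was the other gene lower in both genotypes, and its call was lost when any of 4 of the 23 arrays was left out in WT and any of 16 in KO. In KO against WT 0 of 17 passed within either sex, with 2 at an unadjusted p under 0.05 in females and 3 in males, and the plain test gave 0 after adjustment. Such a p was found for 2253 of all 38385 probe sets in females and 2355 in males. Abcd3, the peroxisomal transporter that takes up dicarboxylic acyl-CoA, came nearest in males, with 12.37 ± 0.40 in WT (SD, n = 5) and 11.78 ± 0.06 in KO (SD, n = 6), a difference of -0.59 (limma, adjusted p = 0.0776). That result turned on 1 array: without male WT replicate 6 the difference was -0.74 and passed (limma, adjusted p = 0.000229), as did the average over the sexes, -0.40 (limma, adjusted p = 0.00335), while without male WT replicate 3 the male difference was -0.50 (limma, adjusted p = 0.319).

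Target genes of PPAR-alpha outside the Cyp4 family gave a mixed picture between the sexes. Of 33 listed, 29 were measured. In WT 4 were higher in females, 0 were lower and 25 did not pass, with a median difference of 0.01. In KO 6 were higher, 1 was lower and 22 did not pass, with a median of 0.08. Over all genes 5.71% passed in WT and 6.74% in KO, with medians of -0.0094 and -0.00486. The same shares stand beside the lists that follow. The target lower in KO, Retsat, a retinol saturase, lost its call when any of 16 of the 23 arrays was left out. Acot3, a peroxisomal thioesterase, was 7.88-fold higher in females in WT (limma, adjusted p = 1.29e-10) and 15.8-fold in KO (limma, adjusted p = 4.01e-14), the largest sex difference among these targets. Vnn1, a pantetheinase, was 2.34-fold higher in WT (limma, adjusted p = 0.000604) and 2.21-fold in KO (limma, adjusted p = 0.000534). Cd36, a fatty acid uptake receptor, was 2.17-fold higher in WT (limma, adjusted p = 0.00451) and 2.46-fold in KO (limma, adjusted p = 0.000383). In the plain test after adjustment the KO sex differences of Vnn1 and Cd36 did not pass (adjusted p = 0.0602 and 0.0523). Acot2, a mitochondrial thioesterase, was 1.36-fold higher in WT (limma, adjusted p = 0.0151) and 1.78-fold in KO (limma, adjusted p = 2.69e-06). The receptor itself, Ppara, differed by 0.10 in WT and 0.16 in KO and did not pass (limma, adjusted p = 0.702 and 0.509). Of 11 genes for the receptor and its coregulators, 9 were measured; in WT 1 passed between the sexes and in KO 2 passed, of which Creb3l3 lost its call when any of 7 of the 23 arrays was left out. The coactivator Ppargc1a was higher in females, by 0.46 in WT (limma, adjusted p = 0.00482) and by 0.56 in KO (limma, adjusted p = 0.000197). In WT Ppargc1a did not pass the plain test after adjustment (adjusted p = 0.0932).

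In KO against WT, 0 of the 29 targets passed in females and 0 of 29 in males, with 3 and 4 at an unadjusted p under 0.05 and 0 in either by the plain test after adjustment. Over all 38385 probe sets, 2253 in females and 2355 in males had such a p. In females Acot3 differed by 0.64 (limma, adjusted p = 0.705) and Pdk4, which restrains glucose oxidation, by 0.60 (limma, adjusted p = 0.795). In males the signs of both were negative, -0.37 for Acot3 and -0.27 for Pdk4, and the differences of the KO effects did not pass (limma, adjusted p = 0.869 and 0.962). Averaged over the sexes, 1 of 29 passed by limma and 0 by the plain test after adjustment: Fabp2, the intestinal fatty acid binding protein, which also stands in the marker list for gut, was lower by 0.43 (limma, adjusted p = 0.0493). That call was lost when any of 19 of the 23 arrays was left out, with an adjusted p of up to 0.132.

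**Figure D3:**
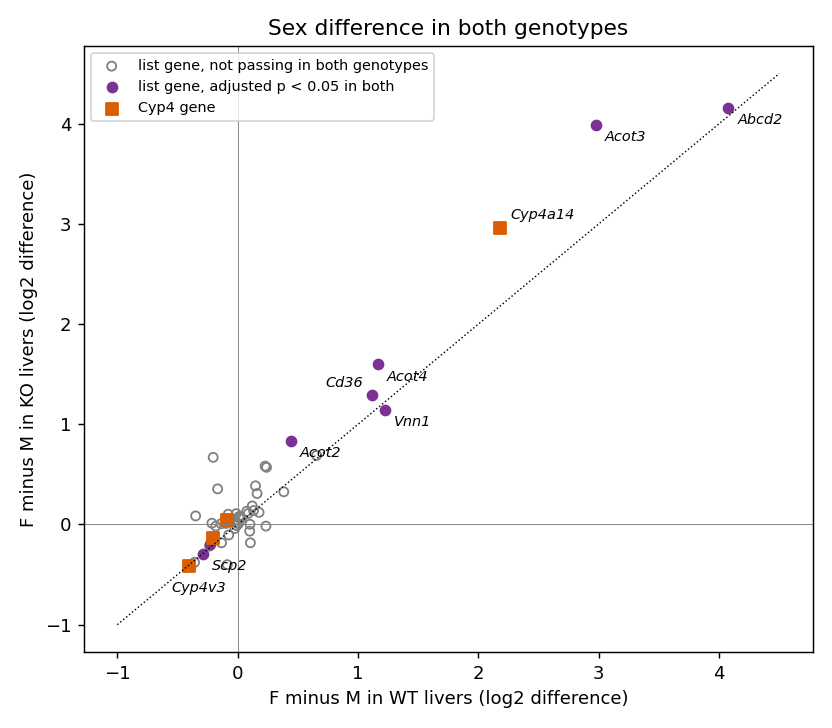
Females minus males in WT (x axis) and in KO (y axis), as log2 differences, for the measured Cyp4 genes (squares), genes of the steps after omega-hydroxylation and PPAR-alpha targets (circles, filled where both differences pass). The dotted line marks equal differences. Cyp4a14 at 2.18 and 2.96 lies between Acot4 and the pair Acot3 and Abcd2, and Cyp4v3 at -0.40 and -0.42 lies at the low end.

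Among the enzymes of leukotriene and arachidonate metabolism, to which Cyp4f enzymes contribute, 12 of 16 were measured. In WT 1 was higher in females, 1 was lower and 10 did not pass, and in KO 2 were lower and 10 did not pass. Ephx2, the soluble epoxide hydrolase, was lower in females by 0.59 in both genotypes (limma, adjusted p = 1.08e-05 in WT and 3.91e-06 in KO). Pla2g4a, a phospholipase that releases arachidonate, passed in WT (limma, adjusted p = 0.0131), but it read 3.31 to 3.74 in the male WT livers, near the range of Y-linked probe sets in females, so no size is given. Ephx1, the microsomal epoxide hydrolase, was lower by 0.72 in KO (limma, adjusted p = 6.98e-05). Of the redox partners that pass electrons to microsomal P450 enzymes, 4 of 5 were measured and only Cyb5b passed, lower in females by 0.28 in WT (limma, adjusted p = 0.0424), a call lost when any of 9 of the 23 arrays was left out. In KO against WT 0 of the 12 leukotriene and arachidonate genes passed within either sex, with 0 in females and 1 in males at an unadjusted p under 0.05 and 0 by the plain test after adjustment. Such a p was found for 2253 of all 38385 probe sets in females and 2355 in males.

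Regulators of sex-biased liver expression and genes of fasting and the clock were read because either can move with Cyp4a levels. Of the growth hormone, STAT5 and sex hormone list, 12 of 14 were measured, 3 higher in females in WT and 5 in KO, with 0 lower. The WT call of Igfals, a carrier of IGF1, was lost when any of 5 of the 23 arrays was left out, and in KO the calls of Igf1 and Stat5a were lost without any of 8 and any of 5. Esr1, the oestrogen receptor, was 3.35-fold higher in females in WT (limma, adjusted p = 6.85e-07) and 3.06-fold in KO (limma, adjusted p = 7.81e-07). Cux2, a female-biased repressor, was 1.62-fold higher in WT (limma, adjusted p = 0.000998) and 1.94-fold in KO (limma, adjusted p = 4.57e-06). Bcl6 leaned the other way in WT, with a log2 difference of -1.91 that did not pass. Its SD was 0.76 in female WT (n = 6) and 1.62 in male WT (n = 5). With an array left out it passed only without male WT replicate 2 (limma, adjusted p = 0.0408). Of 20 fasting and clock genes, 18 were measured and only Fasn, the fatty acid synthase, passed, 1.73-fold higher in females in WT (limma, adjusted p = 0.00221) and 1.89-fold in KO (limma, adjusted p = 0.000174). In WT neither Cux2 nor Fasn passed the plain test after adjustment. No gene of these 2 lists passed in KO against WT within either sex. At an unadjusted p under 0.05 there were 1 of 12 and 3 of 18 in females, the same in males, and 0 by the plain test after adjustment. Of all 38385 probe sets, 2253 in females and 2355 in males had one. In females 15 of the 18 fasting and clock genes had a positive KO minus WT difference, with a median of 0.196, beside 0.00141 over all genes. In males 12 of 18 did, with a median of 0.0616, beside -0.00728 over all genes. The lean of this list was not tested.

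Markers of other cells moved with sex beside the Cyp4 differences. All 5 Kupffer cell markers were measured. In WT 3 of 5, and in KO 4 of 5, were higher in females. Their summed linear intensity was 3575 to 4304 in female WT, 3723 to 4848 in female KO, 2591 to 3358 in male WT and 2567 to 3508 in male KO. The 4 measured hepatocyte markers, of 6 listed, did not pass in any comparison, with sums of 52440 to 55850 in female WT, 52170 to 58440 in female KO, 50440 to 53720 in male WT and 48800 to 53330 in male KO. Alas2, the 1 measured red blood cell marker of 4 listed, was lower in females in both genotypes, at 117.4 to 172.2 in female WT, 112.5 to 153.3 in female KO, 878.3 to 1004 in male WT and 808.4 to 1055 in male KO. Of 6 lymphocyte and neutrophil markers, only Ptprc passed, higher in females in both genotypes. The list's sums were 278.6 to 357.2 in female WT, 271.7 to 355.1 in female KO, 220.3 to 263.5 in male WT and 240.2 to 279.8 in male KO. Of 5 stellate cell and fibroblast markers, 0 passed in WT, and Dcn and Col3a1 were higher in females in KO, with sums of 4926 to 5762, 5029 to 6393, 4576 to 5133 and 4294 to 5285 in the same group order. Tff3, of the 5 gall bladder and gut markers, was lower in females in both genotypes, with list sums of 1050 to 1330, 733.9 to 1097, 1166 to 1555 and 802.3 to 1197. Most of these sums is the signal of Fabp2, with mean linear intensities of 1039, 844, 1209 and 833 in that order, so they do not describe Tff3. Sox9, of 4 measured bile duct markers, was lower in females in WT, and Cela1, of 3 measured pancreas markers, was lower in KO. None of the 5 sinusoidal endothelium or 3 measured adipocyte markers passed between the sexes. The adipocyte markers Adipoq and Plin1 had means within the reach of Y-linked probe sets in females, so little can be read from them. The part of these cells in the sex differences of Cyp4a14 and Cyp4v3 was not tested. Kidney tubule markers, another tissue rich in Cyp4a enzymes, summed to between 75.3 and 108.1 over all livers, and 0 of 4 passed.

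Cyp4a14 covaried with many PPAR-alpha targets from liver to liver after each group's mean was taken out. Over 23 arrays, 23 of the 29 targets had a positive Pearson r with Cyp4a14, with a median of 0.30, while 50.4% of all genes had a positive r, with a median of 0.00. The highest were Acadl (0.70), Vnn1 (0.70), Plin2 (0.66), which coats lipid droplets, and Cd36 (0.65), and the lowest was -0.17. The 2 arrays farthest from their means were male KO replicate 5 and male WT replicate 5. Without them 28 of 29 were positive, with a median of 0.37. Within the 12 female arrays 27 of 29 were positive with a median of 0.46, and within the 11 male arrays 19 of 29 with a median of 0.43. In the male arrays r reached 0.88 for Plin2, 0.84 for Cd36 and 0.82 for Acadl. The lowest male values were -0.59 for Acaa2, -0.48 for Acot2 and -0.42 for Eci1. Both of the farthest arrays are male, and r within the male arrays was not computed without them. The values over all genes are for the 23 arrays, and none were computed for the smaller sets of arrays. The points share their arrays, so these values are a description and carry no p.

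**Figure D4:**
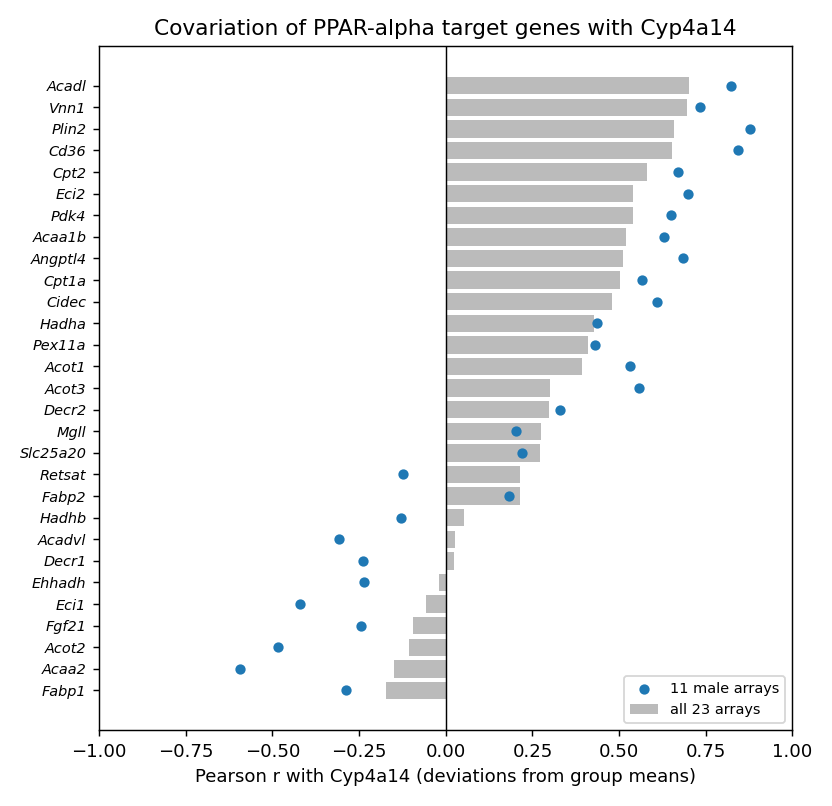
Pearson r between Cyp4a14 and each of 29 measured PPAR-alpha target genes, from deviations from group means on the log2 scale, over all 23 arrays (bars) and over the 11 male arrays (points). Of the bars, 23 are positive, led by Acadl at 0.70, and male r values spread more widely on both sides of 0.

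Among 10823 named genes with a mean above the median of all probe sets, those most like Cyp4a14 by the same measure were Mtmr3 (r = 0.80), Dennd1a (0.79) and Pfkm (0.79), over 23 arrays. Their likeness came from the male livers, with r of 0.90 to 0.91 there and 0.15 to 0.36 in the female livers, and without the 2 farthest arrays r was 0.64 to 0.69. None of them passed between the sexes. Cyp4f13 was most like Gorasp2 (0.84), U2af2 (0.82) and Srsf9 (0.81). Cyp4f15 was most like Dcaf11 (0.83), Acad10 (0.69) and Slc20a2 (0.69), and Cyp4v3 was most like Nkap (0.77), Akr1e1 (0.77) and Blvra (0.76). For Cyp4f15, Acad10 had r of 0.34 in the male and 0.81 in the female livers, and Dcaf11 had 0.68 without the 2 farthest arrays. All these genes are the highest of 10823 candidates, so their r is raised by the picking and carries no p. Pairs of Cyp4 genes, which were not picked by r, had r between -0.28 for Cyp4a14 and Cyp4v3 and 0.36 for Cyp4a14 and Cyp4f15.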

How the data were processed

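Biotin-labelled cRNA from liver was hybridised and read by streptavidin-phycoerythrin (labels' protocols). The authors deposited a linear intensity for each probe set, and the submitters' processing notes name RMA. The sources used here give neither its version nor its settings. Values were converted to log2 with no further scaling. Groups were taken from the sample titles. Nothing in the sources gives litters or cages, and p-values measure the spread between these samples.

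Names came from the platform annotation: 24478 had 1 symbol, 65 several and 13842 are unnamed here. By Entrez ID 24237 of the 24478 are in RefSeq's table of GRCm38.p6. Each probe set was fitted with 1 mean per group over 23 arrays by limma 3.58.1 in R 4.3.3, using lmFit with eBayes (residual degrees of freedom 19, prior 7.61). Adjustment was by Benjamini-Hochberg across the 38385 probe sets, and an adjusted p under 0.05 passed. Lists were read on the brightest probe set per gene. The script was tested on simulated data.

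The Cyp4 genes and all lists were chosen with earlier results of these data known. The text names the Cyp4 genes, P2ry13, up to 4 genes of smallest p per list and comparison where 1 passes and otherwise up to 2, and the 3 genes most like each Cyp4 gene. Some genes the rule allows are not printed. Alternatives were quantile normalization, equal medians, array weights, an intensity trend, a filter on dim probe sets, the replicate block, only the groups compared, the plain test, a 20% minimum change, and leaving out each array. Figures were drawn with matplotlib 3.10.9.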

Additional observations from a re-analysis of the deposited data

How the results depend on the processing

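The sex differences of Cyp4a14 passed under all 10 alternatives in both genotypes and without each of the 23 arrays, with log2 differences of 2 to 2.49 in WT and 2.66 to 3.13 in KO when an array was left out. Those of Cyp4v3 passed without each array too (-0.43 to -0.37 and -0.45 to -0.40), and under the alternatives other than the 20% minimum change, where 1 Cyp4 gene instead of 2 passed in WT and 1 in KO. Values near 0 turned sign: Cyp4a14 in female KO against WT was -0.0857 with array weights and -0.0599 to 0.173 with an array left out, Cyp4f15 was -0.00276 between KO sexes after quantile normalization and -0.00184 averaged with array weights, and Cyp4v3 gave -0.0479 to 0.0112 for the difference of the KO effects with an array left out. Before adjustment the plain test passed Cyp4f13 in male KO against WT and averaged and between the sexes in both genotypes, hence 1 Cyp4 gene in the male and 1 in the average KO comparison. Without female WT replicate 4, Cyp4f13 also passed the F test, 3 of 4 in all.

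Counts over all probe sets moved with the test. In the order KO in females, KO in males, difference of the KO effects, sexes in WT and sexes in KO, the main counts were 21, 12, 4, 1632 and 1862. The plain test gave 7, 3, 2, 765 and 1209 after adjustment and 2009, 2272, 2002, 5719 and 6004 before it, with 2533 for the average against 31. A 20% minimum change gave 12 for KO in females, 6 in males, 12 for the average, 294 for sexes in WT and 367 in KO. A plain analysis of variance, unadjusted and over 20%, gave 4454 against 2490. For KO in males the count was 9 to 21 with an array left out, and 21 without male WT replicate 6. With the replicate block the counts were 18, 13, 4, 1506 and 1685, 27 for the average and 2295 for the F test, and no Cyp4 call changed. Same-numbered samples did not deviate together: r was -0.143 to 0.215 over 22 pairs, over 0.1 in 2, and 2 of 22 arrays correlated best with their own number, so numbers were not taken as pairs. The correlation of Cyp4a10 with Cyp4a14 was not run, since Cyp4a10 has no named probe set here, and no Cyp4 gene had another probe set to try.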
